A study of Rattus norvegicus with 372 samples.

Results

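Valproic acid at 10000 µM was compared directly with valproic acid at 400 µM in primary rat hepatocytes, and the genes that went one way at 400 µM and the other way at 10000 µM relative to vehicle were followed. The compared wells were chosen by their labels alone, as all wells of the WT assay treated with valproic acid, which are 12 of the 372 libraries of the series. Each batch held 3 wells at 400 µM and 3 wells at 10000 µM, with 3 vehicle wells in batch 1 and 6 in batch 2. In batch 2 all valproic acid wells were on plate 2, while the vehicle wells were on plates 2 and 3. Every well, vehicle included, was kept for 24 h in medium with 0.5% DMSO, and the hepatocytes came from male Wistar rats, were freshly isolated and were cultured between layers of collagen. Each batch is 1 rat, 1 library preparation and 1 sequencing run, so these sources cannot be told apart, and wells of one treatment in a batch differ only technically. TempO-Seq joins pairs of oligos bound to neighbouring stretches of a transcript and counts the joined product, so a value belongs to a probe and not to the whole gene. The same lysates were also run by the ST assay, which holds a smaller set of probes and served as a check.

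The WT libraries of valproic acid and vehicle had between 4007480 and 8264980 reads, the shallowest being a well of 10000 µM in batch 1. The wells at 10000 µM stood apart in composition. Their 10 most abundant probes took 7.84% to 11.3% of the reads, against 10.5% to 16.0% in the other wells, and their TMM normalization factors were 1.18 to 1.28, against 0.953 to 1.10. In all results below, levels are read counts scaled to a common library size (CPM) with TMM normalization, and differences are log2 fold changes (L2FC). Errors after ± are standard errors worked back from the test statistic, with the spread between wells estimated from all groups of the batch. A DEG is a probe with a Benjamini-Hochberg adjusted p under 0.05 from edgeR's quasi-likelihood test over the 10689 probes tested.

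The identity of the wells was looked at through genes chosen after their values were seen, so they describe the wells and do not test the labels. Cyp4a1, a fatty acid hydroxylase gene and classical target of the nuclear receptor PPARα, had an L2FC against vehicle of 8.73 and 8.16 in the 400 µM wells of batches 1 and 2, and of -0.39 and -0.12 in wells labelled chloramphenicol at 18 µM. At the higher concentration of chloramphenicol, 450 µM, it was 0.27 and 1.4, called in batch 2 only (edgeR, adjusted p = 0.0177). Chloramphenicol was looked at because a summary table of the study lists the numbers of DEGs of these chemicals the other way round from the sample labels. Tubb2b, a neuronal tubulin gene, had an L2FC of 5.46 and 5.00 at 10000 µM and of -0.16 and -1.90 with chloramphenicol at 450 µM. At 400 µM of valproic acid it was 0.58 and 0.41, not called in either batch. The sample labels were used throughout and no well was reassigned.

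Valproic acid is a branched short-chain fatty acid used against epilepsy. In the liver it is taken up into the pathways that activate and oxidise fatty acids, can activate PPARα, which switches on genes of fatty acid oxidation, and can cause steatosis. It also inhibits histone deacetylases, enzymes that keep chromatin closed, and inhibitors of these enzymes can open genes that a cell type normally keeps silent.

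The promoters of a few named reversing genes are shown as examples of windows that hold the searched motifs. They were chosen after their motifs were seen. Of the other named reversing genes with a window, Aadac, Dhrs7l1 and Nppb hold none of the motifs. Tdrd15, Dhrs7, Sult2a2, Fer1l5, Arid5a and Pea15 hold some. The sequences are the 250 bases before the start of the gene in RefSeq's GRCr8 assembly, printed on the strand of the gene, with the searched motifs in capitals. The TATA box was searched as TATAAA on the gene strand only, and the other motifs were searched on both strands. The CCAAT box was searched by the letters of its name. The GC box, a site of the Sp factors, was searched as GGGCGG. Part of the recognition sequence of many nuclear receptors, AGGTCA, was searched as the nuclear receptor motif. Part of the sequence bound by the liver factor HNF1, GTTAAT, was searched as the HNF1 motif. The cAMP response element was searched as TGACGTCA. The first pair rose at 400 µM and fell at 10000 µM, and the second pair went the other way.
Fabp1 (chr4:104749090-104749339, plus strand): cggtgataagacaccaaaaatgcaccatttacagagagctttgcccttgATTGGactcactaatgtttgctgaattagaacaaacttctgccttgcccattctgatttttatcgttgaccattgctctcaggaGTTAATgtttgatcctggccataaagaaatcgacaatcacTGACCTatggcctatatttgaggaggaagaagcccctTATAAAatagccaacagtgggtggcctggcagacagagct
C6 (chr2:55573383-55573632, plus strand): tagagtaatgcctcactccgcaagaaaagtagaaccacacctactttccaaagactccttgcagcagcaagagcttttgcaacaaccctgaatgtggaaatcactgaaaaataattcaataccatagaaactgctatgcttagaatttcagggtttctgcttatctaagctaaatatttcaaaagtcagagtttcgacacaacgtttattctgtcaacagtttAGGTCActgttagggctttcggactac
Kctd11 (chr10:55103456-55103705, minus strand): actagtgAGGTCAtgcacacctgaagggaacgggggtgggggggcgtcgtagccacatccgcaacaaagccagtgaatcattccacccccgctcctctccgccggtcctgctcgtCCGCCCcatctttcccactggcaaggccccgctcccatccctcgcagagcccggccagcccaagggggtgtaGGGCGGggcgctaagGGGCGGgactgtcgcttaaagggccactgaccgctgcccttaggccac
Bzw2 (chr6:58615885-58616134, minus strand): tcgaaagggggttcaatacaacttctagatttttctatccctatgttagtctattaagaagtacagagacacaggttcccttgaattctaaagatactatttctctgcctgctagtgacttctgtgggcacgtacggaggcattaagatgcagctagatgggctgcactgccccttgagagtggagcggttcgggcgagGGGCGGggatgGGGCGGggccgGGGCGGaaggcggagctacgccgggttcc

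The Fabp1 window holds a TATA box, an HNF1 motif and, on the opposite strand, a CCAAT box and a nuclear receptor motif, and has 3 CpG dinucleotides, while that of Kctd11 holds 3 GC boxes, a nuclear receptor motif and 17 CpG. A promoter was found for 131 of the 176 genes that rose at 400 µM and fell at 10000 µM in both batches and for 36 of the 54 that did the reverse. The median number of CpG was 7 in the former, 18 in the latter and 17 over the 7528 tested genes with a promoter. A GC box was present in 39.7% of the former, 66.7% of the latter, 60.4% of the tested genes and 32.4% of all 27457 promoters of this length. The HNF1 motif was found in 12.2%, 2.78%, 4.08% and 6.46% in the same order, the TATA box in 9.92%, 5.56%, 4.08% and 8.38%, and the nuclear receptor motif in 13%, 8.33%, 10.5% and 13.7%. The CCAAT box was at 31.3%, 33.3%, 36.3% and 34.3%, and the cAMP response element at 0%, 8.33%, 3.04% and 1.70%. These are shares of promoters that hold the letters, not binding sites.

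The direct comparison of the concentrations used no vehicle well. In batch 1, 2665 probes (24.9%) were higher and 2732 (25.6%) lower at 10000 µM than at 400 µM, and in batch 2, 3193 (29.9%) were higher and 3179 (29.7%) lower. In both batches and with one sign, 2239 (20.9%) were higher and 2352 (22.0%) lower, while 20 were called with opposite signs. These shared calls were 85.1% of those of batch 1 and 72.1% of those of batch 2. The median absolute L2FC over all probes was 0.49 in batch 1 and 0.59 in batch 2. Against vehicle, 400 µM gave 877 higher and 663 lower probes in batch 1 and 1429 and 1186 in batch 2, and 10000 µM gave 2599 and 2695 in batch 1 and 3455 and 3307 in batch 2. In both batches, 6.63% of the probes were higher and 4.40% lower at 400 µM, and 20.9% higher and 21.4% lower at 10000 µM. With total counts as the only scaling, which moves the median L2FC of all probes from -0.0032 to 0.23 in batch 1 and from 0.014 to 0.39 in batch 2, 66.4% and 71.0% of the direct calls were higher at 10000 µM, against 49.4% and 50.1% with TMM.

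Reversing probes are those called at both concentrations with opposite signs. In batch 1, 215 probes were higher than vehicle at 400 µM and lower at 10000 µM, and 82 went the other way. In batch 2 these were 482 and 282. Reversal was thus common among the probes that responded to both concentrations. Such probes numbered 1036 in batch 1 and 1899 in batch 2, so that opposite signs were 297 and 764 of them. Another 382 and 570 were higher at both concentrations and 357 and 565 lower at both. With total counts only, the reversing probes split into 180 and 150 in batch 1 and 316 and 625 in batch 2.

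In both batches, 184 probes of 176 genes rose at 400 µM and fell at 10000 µM, which is 1.72% of the probes tested, and 54 probes of 54 genes (0.505%) fell and then rose. No probe was in opposite classes in the batches. The 238 probes are 80.1% of those reversing in batch 1 and 31.2% of those in batch 2. With total counts only, 143 and 111 probes reversed in both batches, of which 137 and 51 were among the 184 and 54. Of the 184, the vehicle, 400 µM and 10000 µM wells did not overlap in either batch for 163, and of the 54 for 39. For 113 of the 184 and 21 of the 54, the change was larger at 10000 µM than at 400 µM in both batches.

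**Figure D1:**
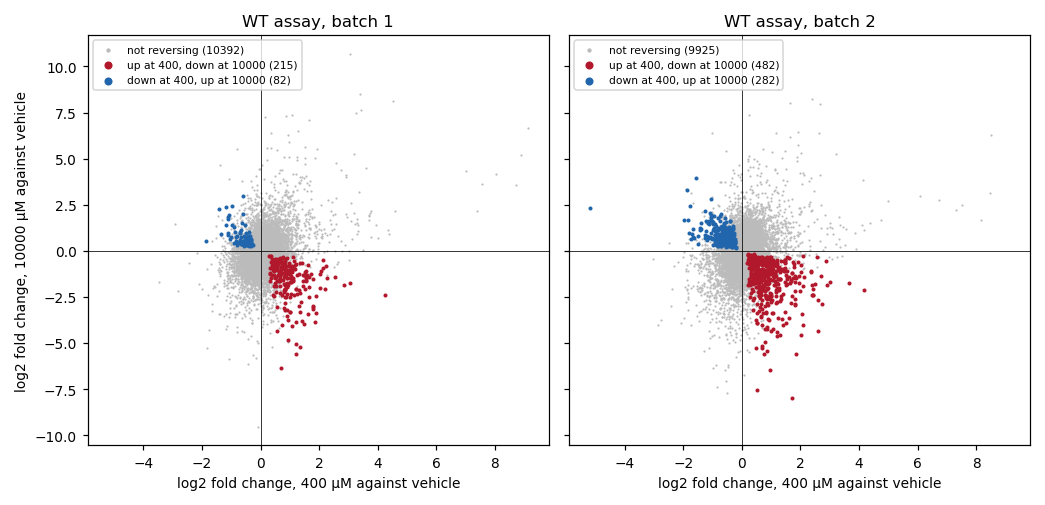
L2FC against vehicle at 400 µM (horizontal) and at 10000 µM (vertical) of each tested WT probe, one panel per batch, with the probes that reversed in that batch in colour. The 215 and 482 probes that rose and then fell lie in the lower right and the 82 and 282 that fell and then rose in the upper left, and both concentrations share their vehicle wells.

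As levels, the 184 probes together took 2.67% to 3.24% of the reads in the vehicle wells of batch 1, 5.38% to 6.04% at 400 µM and 1.13% to 1.36% at 10000 µM. In batch 2 the ranges were 2.85% to 3.25%, 5.83% to 6.39% and 0.937% to 0.963%. The 54 probes took 0.393% to 0.426%, 0.253% to 0.282% and 0.835% to 0.883% in batch 1, and 0.376% to 0.418%, 0.221% to 0.234% and 0.693% to 0.748% in batch 2. No group of wells overlapped with another in these sums. This separation follows from how the probes were chosen and is a description. The median probe was at 56.4 CPM in the 184, at 43.6 CPM in the 54 and at 20.3 CPM over all tested probes.

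Fabp1 encodes the liver fatty acid binding protein and is a PPARα target, and it led the genes that rose and then fell. Its level in batch 1 was 42.9, 60.3 and 36.9 CPM with vehicle, 911, 988 and 779 CPM at 400 µM and 6.55, 10.1 and 10.6 CPM at 10000 µM. In batch 2 it was 17.9 at the lowest, 22.4 at the median and 25.3 at the highest with vehicle, 423, 374 and 398 at 400 µM and 7.23, 4.09 and 4.04 CPM at 10000 µM. Every 400 µM well was above and every 10000 µM well below all vehicle wells of its batch. The direct L2FC was -6.64 ± 0.27 in batch 1 and -6.28 ± 0.30 in batch 2, a level 99.5-fold and 77.8-fold lower at 10000 µM.

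Akr1d1 encodes the steroid reductase that works in bile acid synthesis. In batch 1 it was at 57.7, 62.9 and 58.7 CPM with vehicle, 298, 175 and 255 CPM at 400 µM and 13.9, 13.8 and 17.8 CPM at 10000 µM. The levels in batch 2 were 21.1 at the lowest, 25.9 at the median and 30.0 at the highest with vehicle, 177, 122 and 122 at 400 µM and 3.78, 7.24 and 7.33 CPM at 10000 µM. Again no wells overlapped between groups, and the direct L2FC was -4.02 ± 0.19 and -4.51 ± 0.29.

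Dhrs7, a short-chain dehydrogenase gene, was at 73.5, 74.0 and 75.2 CPM with vehicle in batch 1, 298, 217 and 320.1 CPM at 400 µM and 7.97, 5.71 and 7.85 CPM at 10000 µM. Its batch 2 levels were 24.0 at the lowest, 26.2 at the median and 33.4 at the highest with vehicle, 192, 160.3 and 138 at 400 µM and 2.45, 4.61 and 5.53 CPM at 10000 µM. Its relative Dhrs7l1 had the higher levels of the pair. It was at 1059, 879 and 1359 CPM at 400 µM and 37.1, 38.0 and 43.5 CPM at 10000 µM in batch 1, against 111, 149.6 and 134 CPM with vehicle. Probes of such related genes may share reads. The direct L2FC was -5.29 and -5.27 for Dhrs7 and -4.80 and -5.43 for Dhrs7l1 in batches 1 and 2.

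Aadac encodes a deacetylase of the endoplasmic reticulum that hydrolyses drugs and lipids. In batch 1 it was at 5.93, 5.57 and 4.71 CPM with vehicle, 18.7, 17.0 and 21.0 CPM at 400 µM and 0.643, 0.993 and 0.212 CPM at 10000 µM, the last resting on 1 to 8 reads a well. Sult2a2, a sulfotransferase of steroids and bile acids had 3 tested probes, of which 2 reversed. The probe with the stronger reversal was at 27.2, 22.5 and 22.7 CPM at 400 µM in batch 2 and at 0.222, 0.210 and 0.106 CPM at 10000 µM, which is 1 to 2 reads a well. The 10000 µM levels of both genes thus rest on few reads.

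The other genes named in this class were Tdrd15, a tudor domain gene, Fer1l5, of the ferlin family, AABR07057436.1, a gene model, and C6, a component of the terminal complement complex. Their direct L2FC was -4.28 and -5.61 for Tdrd15 in batches 1 and 2, -4.74 and -4.68 for Fer1l5, -3.62 and -4.81 for AABR07057436.1 and -3.14 and -6.10 for C6. C6 had few reads, and was at 6.18, 4.43 and 5.17 CPM at 400 µM and 0.771, 0.497 and 0.424 CPM at 10000 µM in batch 1. In batch 2 its 10000 µM wells held 0 to 1 read, and its reversal was no longer called when the libraries were thinned to one depth when only vehicle wells of the same plate were used, or in 1 of 2 arrangements with separate vehicle wells for each concentration.

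Genes that fell at 400 µM and rose at 10000 µM had a median direct L2FC of 1.23 and 1.60 in batches 1 and 2, against -2.39 and -2.90 for those that rose and then fell. Plat, which encodes tissue plasminogen activator, was at 302, 237 and 313 CPM with vehicle in batch 1, 168, 108 and 123 CPM at 400 µM and 904, 1063 and 862 CPM at 10000 µM. In batch 2 it was at 211 at the lowest, 238 at the median and 295 at the highest with vehicle, 72.8, 89.0 and 64.6 at 400 µM and 373, 545 and 480.5 CPM at 10000 µM. The groups did not overlap, and the direct L2FC was 2.82 ± 0.19 and 2.63 ± 0.23.

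Kctd11 encodes an adaptor of a ubiquitin ligase that acts on the deacetylase Hdac1. In batch 1 it was at 13.5, 16.0 and 11.4 CPM with vehicle, 7.15, 8.41 and 5.33 CPM at 400 µM and 58.6, 74.6 and 84.0 CPM at 10000 µM. Its batch 2 levels were 20.7 at the lowest, 21.8 at the median and 28.8 at the highest with vehicle, 9.89, 12.9 and 10.8 at 400 µM and 198, 149 and 141 CPM at 10000 µM. The wells of each group stayed apart, with a direct L2FC of 3.37 ± 0.24 and 3.86 ± 0.21.

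Bzw2 encodes a regulator of translation initiation. It was at 16.6, 14.1 and 12.2 CPM with vehicle, 9.45, 7.65 and 7.0 CPM at 400 µM and 21.3, 22.4 and 29.1 CPM at 10000 µM in batch 1. The levels in batch 2 were 11.3 at the lowest, 12.7 at the median and 13.3 at the highest with vehicle, 6.75, 5.45 and 5.97 at 400 µM and 56.7, 40.1 and 47.9 CPM at 10000 µM. Its level at 10000 µM was higher in batch 2, and its direct L2FC, 1.57 ± 0.17 and 2.99 ± 0.16, differed between the batches (difference 1.41, edgeR interaction, adjusted p = 5.31e-06).

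The other named genes of this class spanned a wide range of levels. Nppb, the precursor of brain natriuretic peptide, had a direct L2FC of 2.59 and 3.67 in batches 1 and 2 and Crct1, a gene of the epidermal differentiation region, of 3.70 and 5.53. For Enkur, a gene of cilia and sperm, the values were 3.57 and 2.63, and for Arid5a, an RNA-binding regulator, 1.91 and 2.42. Pea15, a death effector domain protein gene, was at 2.35 and 2.13, Ugcg, the glucosylceramide synthase gene, at 1.74 and 2.30 and LOC100910418 at 2.91 and 2.84. Nppb, Crct1 and Enkur had under 30 reads in every 400 µM well. The reversal of Nppb was lost with DESeq2, which was fitted to valproic acid and vehicle wells only. It was also lost without the filter on low counts and when edgeR was fitted to only these wells. The reversal of Enkur was lost with edgeR on only these wells and with thinned libraries. That of Crct1 was lost with thinned libraries and in 1 of 2 arrangements with separate vehicle wells for each concentration.

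**Figure D2:**
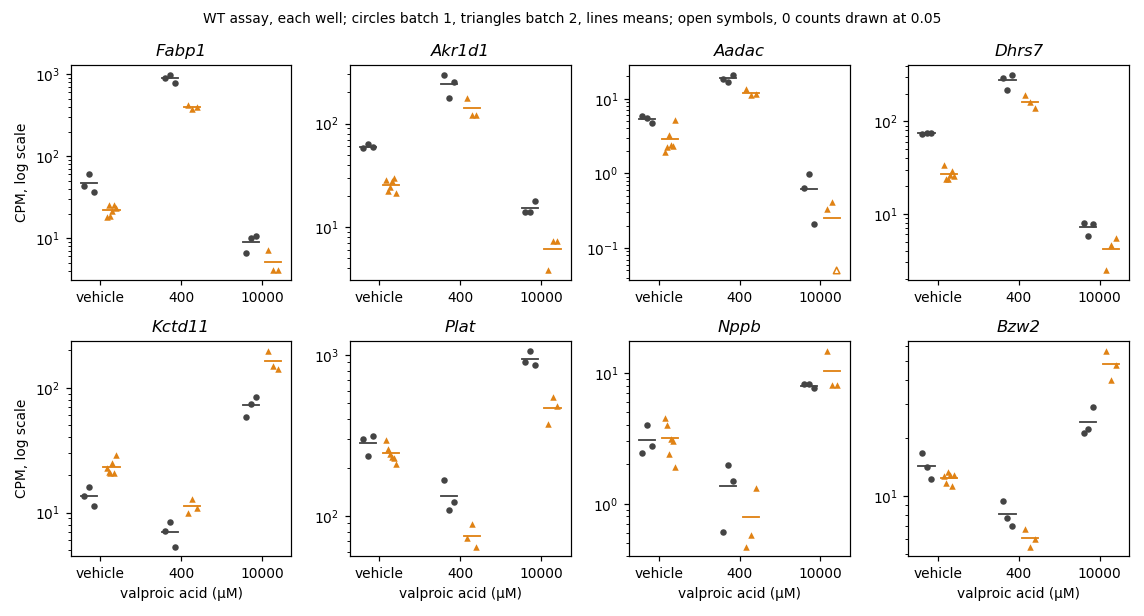
Level in CPM (log axis) in each well of batch 1 (circles) and batch 2 (triangles) for vehicle, 400 µM and 10000 µM, with the group means as lines, for Fabp1, Akr1d1, Aadac and Dhrs7, which rose and then fell, and for Kctd11, Plat, Nppb and Bzw2, which did the reverse. An open symbol stands for a well with 0 reads, drawn at 0.05, which occurs once for Aadac in batch 2, and Fabp1 spans 4.04 to 988 CPM.

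Genes that reverse in a batch must differ in the direct comparison of that batch, so the direct comparison was read in the other batch, which holds another rat and other vehicle wells. Of the 215 probes that rose and then fell in batch 1, 214 (99.5%) were lower at 10000 µM in batch 2, against 29.7% of all probes, with a median direct L2FC of -2.70. Of the 82 that fell and then rose, 80 (97.6%) were higher in batch 2, against 29.9%, with a median of 1.43. Taken the other way, 466 of the 482 probes of batch 2 (96.7%) were lower in batch 1, against 25.6%, and 257 of the 282 (91.1%) were higher, against 24.9%. A single probe of these 4 sets was called in the opposite direction. Recurrence was not particular to these sets, as 85% of all direct calls of batch 1 and 72% of those of batch 2 were shared with one sign. The direct comparison does not test reversal against vehicle. Reversal itself recurred for 184 of 215 and 54 of 82 probes of batch 1 and for 184 of 482 and 54 of 282 of batch 2.

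**Figure D3:**
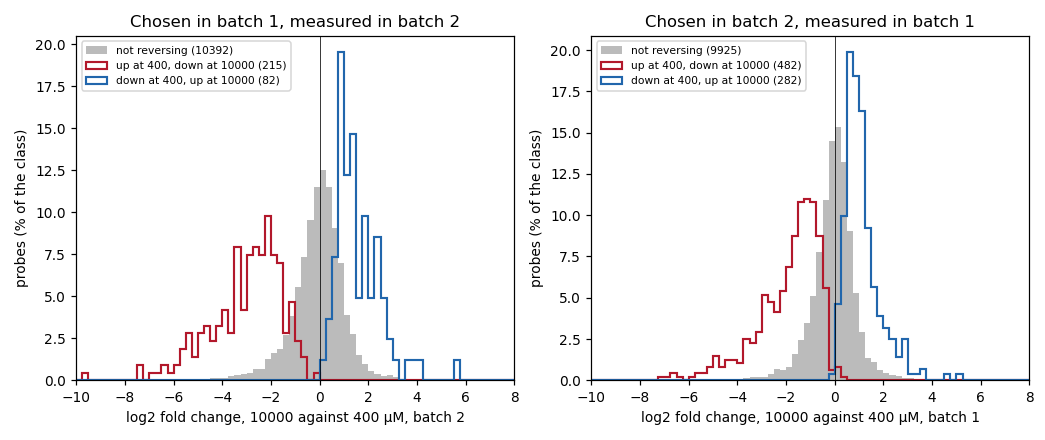
Histograms of the direct L2FC (10000 µM against 400 µM) measured in batch 2 for probes chosen in batch 1 (left) and in batch 1 for probes chosen in batch 2 (right), as % of each class, with the probes that did not reverse in grey. Most probes that rose and then fell lie below 0, with medians of -2.70 and -1.55, and most that fell and then rose lie above 0, with medians of 1.43 and 0.96.

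The largest direct differences were not all reversals. Among the genes that were higher at 10000 µM, Hamp encodes hepcidin, the hormone that limits iron uptake, and was at 272, 343 and 363 CPM at 10000 µM and 3.39, 1.53 and 1.83 CPM at 400 µM in batch 1. The levels in batch 2 were 337, 408 and 401 CPM at 10000 µM and 2.2, 1.87 and 4.08 CPM at 400 µM, and its 400 µM level was not called different from vehicle in either batch. Csdc2, a cold shock domain gene, had 0 reads in the vehicle wells of batch 1 and 1 read in each 400 µM well, and 27.8, 33.3 and 38.2 CPM at 10000 µM, at least 226-fold higher than vehicle at a floor of 3 reads over the group. The others were Elovl4 (direct L2FC 6.43 and 7.39), which elongates very long chain fatty acids, Hapln4 (5.44 and 5.85), a link protein gene of brain matrix, Serpini1 (5.35 and 5.99), the neuroserpin gene, and Plagl1 (5.36 and 5.29), an imprinted zinc finger gene.

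Of the 6 genes named as most reduced, Fabp1, Inhbc, G0s2, Snrpc and RGD1559600 were also higher than vehicle at 400 µM and lower at 10000 µM in both batches. G0s2, which inhibits the lipase that releases fatty acids from stored fat, was at 116, 139 and 94.4 CPM with vehicle, 262, 353 and 267 CPM at 400 µM and 2.44, 3.35 and 3.61 CPM at 10000 µM in batch 1. In batch 2 it was at 319, 274 and 337 CPM at 400 µM and 1.56, 1.68 and 2.02 CPM at 10000 µM. Inhbc, an inhibin subunit gene, had no read at 10000 µM in batch 2 and was at least 138-fold lower than at 400 µM. The direct L2FC of Snrpc, a spliceosome gene, was -7.02 and -6.37 and that of RGD1559600 was -6.28 and -7.40. Ttll10, a tubulin-modifying enzyme gene, had no read at 10000 µM in batch 1, at least 94.9-fold lower than at 400 µM, and did not differ from vehicle past the threshold at 400 µM.

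The genes of fatty acid oxidation rose at 400 µM and most stood lower at 10000 µM, but few went below vehicle in both batches. Of 14 tested CYP4A and PPARα marker genes, 13 were higher than vehicle at 400 µM in both batches, against 6.63% of all probes, and in the direct comparison 10 were lower and 1 higher at 10000 µM, against 22.0% and 20.9%. The same shares hold as background for the lists of β-oxidation. All gene lists were chosen with earlier results of these data known, and each gene counts by its most abundant probe. The contrast of a list with all probes is thus set in part by these choices. Fabp1 was the only marker gene to reverse in both batches, and 2 genes of this list reversed in batch 2. Of all probes, 1.72% rose and then fell in both batches and 4.51% in batch 2. The median direct L2FC of the marker genes was -1.67 and -1.86, against -0.0032 and 0.014 over all probes in batches 1 and 2. Cyp4a1 was at 1.05, 1.57 and 2.27 CPM with vehicle, 674, 658 and 704 CPM at 400 µM and 19.9, 18.4 and 18.7 CPM at 10000 µM in batch 1. It stood above vehicle at both concentrations while its direct L2FC was -5.16 and -6.48. Pdk4, which restrains glucose oxidation, went against the list, with a direct L2FC of 2.09 and 2.06.

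Among 18 tested genes of peroxisomal β-oxidation, 15 were higher at 400 µM and 14 lower in the direct comparison. Acox2 and Pecr reversed in both batches and 5 genes in batch 2. For this list and the next, 1.72% and 4.51% of all probes rose and then fell in both batches and in batch 2. Ehhadh, the peroxisomal bifunctional enzyme, had an L2FC against vehicle of 7.55 and 6.72 at 400 µM and of 3.60 and 2.77 at 10000 µM. Acot4, an acyl-CoA thioesterase gene, had 3.50 and 3.27 at 400 µM and returned to 0.02 and -0.34, which did not pass the test. Of 20 tested genes of mitochondrial β-oxidation and the carnitine shuttle, 18 were higher at 400 µM and 13 lower in the direct comparison, with a median direct L2FC of -1.07 and -1.47. Echs1, which hydrates enoyl-CoA, was the one that reversed in both batches, and 4 genes did in batch 2. Acaa2, the thiolase of the last step, was at 2066, 1905 and 2374 CPM at 400 µM and 364, 416 and 417 CPM at 10000 µM in batch 1. Cpt1a, the gate of fatty acid entry into mitochondria, was higher than vehicle at both concentrations (2.05 and 2.29 at 400 µM and 2.5 and 2.42 at 10000 µM) and was not called in both batches of the direct comparison.

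Reversals were found among enzymes of amino acid metabolism. Of 35 tested genes of the urea cycle and amino acid breakdown, 17 were higher at 400 µM, against 6.63% of all probes, and 19 lower at 10000 µM, against 21.4%. Both held for 12 genes, which is 34.3% of the list against 1.72% of all probes. Among these were Otc, Gpt, Tdo2, Fah, Prodh2, Bhmt, Cth, Mat1a, Agxt, Agxt2 and Gldc. Otc, the urea cycle enzyme of mitochondria, was at 33.0, 37.1 and 35.9 CPM with vehicle, 57.7, 46.5 and 50.5 CPM at 400 µM and 2.57, 5.71 and 4.46 CPM at 10000 µM in batch 1. Batch 2 wells had 12.7 at the lowest, 16.6 at the median and 18.4 at the highest with vehicle, 28.7, 38.6 and 32.5 at 400 µM and 0.778, 1.78 and 2.02 CPM at 10000 µM. Glul, which makes glutamine, and Aass, of lysine breakdown, were higher at 10000 µM in the direct comparison, by 1.68 and 1.42 for Glul and 2.05 and 1.64 for Aass in batches 1 and 2. With total counts only, 10 genes of the list reversed.

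Of 21 tested hepatocyte transcription factors, 7 reversed, with 4 under total counts only, against 1.72% of all probes. They were Hnf4a, Nr5a2, Prox1, Ppara, Nr1i2, Nr1i3 and Nr1h4, which include the receptors for fatty acids (Ppara), xenobiotics (Nr1i2 and Nr1i3) and bile acids (Nr1h4). Nr1i3 was at 4.77, 4.70 and 4.55 CPM with vehicle, 19.4, 25.5 and 22.0 CPM at 400 µM and 2.18, 2.98 and 2.76 CPM at 10000 µM in batch 1. Hnf4a moved less, with a direct L2FC of -1.22 and -1.51. Pparg, the receptor of fat storage, was the member higher in the direct comparison (2.78 and 1.92). Of 12 tested genes of bile acid synthesis and transport, 8 were lower in the direct comparison and none higher, against 22.0% and 20.9% of all probes, and the enzyme Akr1d1, the receptor Nr1h4 and the transporter Abcb11 were among those that reversed.

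Of 25 tested genes of gluconeogenesis and glycolysis, 5 were higher and 11 lower in the direct comparison, where 20.9% and 22.0% of all probes were, and Gckr and Pfkfb1 were among those that reversed. The direct L2FC was -3.05 and -2.91 for Gckr and -3.33 and -2.90 for Pfkfb1, which makes an enzyme that sets the level of a glycolytic regulator, in batches 1 and 2. Hk1, a hexokinase of many tissues, went up in the direct comparison by 2.73 and 2.80.

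Most genes of secreted plasma proteins were lower at 10000 µM than at 400 µM, where 22.0% of all probes were lower and 20.9% higher. All 21 tested complement genes were lower in the direct comparison, 19 with total counts only. At 400 µM, 6 were higher than vehicle in both batches, against 6.63% of all probes, and 11 in batch 2, against 1429 of 10689 probes. C4bpa, C4bpb, C6, C8g and Mbl1 reversed in both batches, where 1.72% of all probes rose and then fell. In batch 2 alone, 10 complement genes and 13 coagulation genes rose and then fell, as did 4.51% of all probes. Mbl1, a mannose-binding lectin, was at 75.9, 96.9 and 66.5 CPM with vehicle, 143, 197 and 158 CPM at 400 µM and 3.98, 4.22 and 6.15 CPM at 10000 µM in batch 1. Of 23 tested genes of coagulation and fibrinolysis, 20 were lower and Plat was higher, and F11, F12 and Cpb2 rose and then fell, a class that held 2 genes of the list with total counts only. Serpind1, heparin cofactor, had a direct L2FC of -5.70 and -4.51 and was not called at 400 µM. Of 20 apolipoproteins and secreted carriers, 17 were lower and none higher, and Rbp4, the carrier of retinol, reversed. Of 20 acute phase genes, 14 were lower and 2 higher, and Crp and Cp reversed, a class that held 1 gene of the list with DESeq2.

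Genes of drug metabolism followed several paths, and of all probes 22.0% were lower and 20.9% higher in the direct comparison and 1.72% rose and then fell. Of 14 constitutive CYP2 genes, 11 were lower in the direct comparison, and Cyp2c22 and Cyp2d1 reversed. Cyp2c11, the male-specific enzyme of rat liver, had an L2FC of -4.98 and -2.44 at 10000 µM and of -0.09 and 0.86 at 400 µM, called at 400 µM in batch 2 only. Of 22 phase II genes, 15 were lower and 5 higher, the latter near the share of all probes, and Mgst1, Sult1b1 and Sult2a2 reversed. Cyp2b2, a target of the receptor encoded by Nr1i3, had an L2FC of 4.39 and 3.89 at 400 µM and of 0.93 and 0.08 at 10000 µM. Of 6 AhR targets, 4 were lower, and Aldh3a1 reversed (direct L2FC -5.76 and -6.62) but its 400 µM call was lost under total counts only, while its direct call was not.

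**Figure D4:**
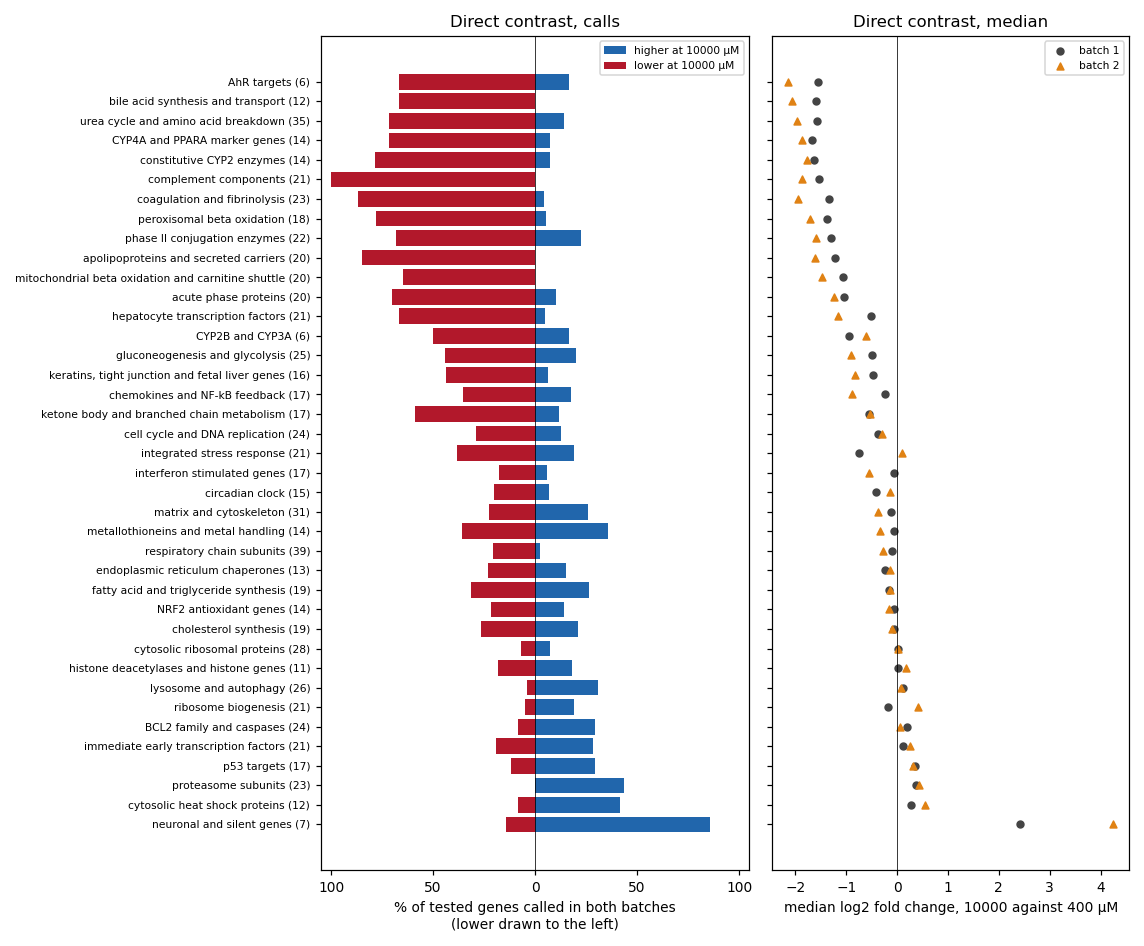
For each gene list (number of tested genes in parentheses), the % of genes called lower (left bars) or higher (right bars) at 10000 µM than at 400 µM in both batches, and the median direct L2FC of the list in batch 1 (circles) and batch 2 (triangles). Complement has 21 of 21 genes lower and proteasome subunits 10 of 23 higher and none lower, while the 7 neuronal genes shown are those of 39 that passed the filter on low counts.

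For the other lists, the counts are to be read beside the 20.9% of all probes that were higher and the 22.0% that were lower in both batches. These shares hold for TMM and are no background for the counts with total counts only. Under that scaling 3842 of all probes were higher and 1943 lower in batch 1, and 5010 and 2046 in batch 2. Of 39 neuronal and normally silent genes with a probe, 7 passed the filter on low counts, which such a gene may pass only through the wells where it is high, so their count and median are set in part by the filter. The higher ones at 10000 µM included Tubb2b (4.89 and 4.59), Uchl1 (4.13 and 4.50) and Mapt (4.25 and 4.24). Of 23 proteasome subunits, 10 were higher and none lower, and the median L2FC over all 23 was 0.38 and 0.42. Among 12 heat shock genes, 5 were higher and 1 lower, or 8 and 0 with total counts only, and Hspa8, Hspa4 and Bag3 were lower than vehicle at 400 µM but not called in both batches at 10000 µM. Of 11 histone deacetylase and histone genes, 2 were higher and 2 lower, near the shares of all probes, or 3 and 1 with total counts only. Hdac1 was higher by 1.90 and 1.66. The matrix and cytoskeleton list had 8 higher and 7 lower of 31, also near those shares, or 10 and 4 with total counts only. In this list 11 genes were lower than vehicle at 400 µM, against 4.40% of all probes, and Thbs1, of the thrombospondins, fell and then rose. Rrp12, of ribosome biogenesis, was the other listed gene in that class besides Plat and Thbs1, but no gene of its list was in it with DESeq2. For 39 respiratory chain genes, 1 was higher and 8 lower with TMM but 9 higher and 4 lower with total counts only, and for 28 ribosomal protein genes 2 and 2 became 10 and 0. The same scaling turned cholesterol synthesis from 4 and 5 to 7 and 4, NRF2 antioxidant genes from 2 and 3 to 3 and 2, endoplasmic reticulum chaperones from 2 and 3 to 3 and 2, and the integrated stress response from 4 and 8 to 6 and 6. It gave 4 and 6 for ketone body and branched chain metabolism, 5 and 4 for fatty acid and triglyceride synthesis, 9 and 1 for immediate early factors, 5 and 6 for the cell cycle, 1 and 1 for the circadian clock and 12 and 2 for the BCL2 family.

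Against the same 20.9% and 22.0%, and with TMM, higher and lower members in the direct comparison in the remaining lists numbered 2 and 10 of 17 for ketone body and branched chain metabolism, where Bdh1 reversed, and 1 and 3 of 6 for CYP2B and CYP3A. They were 2 and 3 of 14 for NRF2 antioxidant genes, 4 and 8 of 21 for the integrated stress response, where Ddit4 and Psat1 reversed, and 2 and 3 of 13 for endoplasmic reticulum chaperones. Ddit3, the stress response factor, was higher by 1.91 and 3.05. In batch 2 alone, 9 genes of its list were higher and 8 lower. Of all probes, 29.9% were higher and 29.7% lower in that batch, and the cell cycle counts of batch 2 given below are near these shares. For p53 targets they were 5 and 2 of 17, for cholesterol synthesis 4 and 5 of 19, and for fatty acid and triglyceride synthesis 5 and 6 of 19, where Gpam reversed. For ribosome biogenesis they were 4 and 1 of 21, for the cell cycle 3 and 7 of 24 (8 and 8 in batch 2 alone), for immediate early factors 6 and 4 of 21, for chemokines and NF-kB feedback 3 and 6 of 17, where Il1rn and Sod2 reversed with TMM and none with total counts only, and for interferon stimulated genes 1 and 3 of 17. For metal handling they were 5 and 5 of 14, where Slc30a10 and Cp reversed with TMM and 1 gene rose and then fell with total counts only and with DESeq2, for keratins and fetal liver genes 1 and 7 of 16, where Afp and Igf2bp3 rose and then fell with TMM and 1 gene with total counts only, for lysosome and autophagy 8 and 1 of 26, for the BCL2 family 7 and 2 of 24 and for the circadian clock 1 and 3 of 15.

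Markers of cell types moved mostly at 10000 µM. Against vehicle and in both batches, 1 of 10 hepatocyte markers was higher at 400 µM and 9 were lower at 10000 µM. Of 7 Kupffer cell and leukocyte markers, none was called at 400 µM and 6 were lower at 10000 µM. Of all probes, 6.63% were higher at 400 µM and 21.4% lower at 10000 µM. In the direct comparison, 22.0% of all probes were lower and 20.9% higher. Of 10 tested hepatocyte markers, 9 were lower at 10000 µM in the direct comparison, and their summed level was 34500 to 39692 CPM with vehicle, 35982 to 52045 CPM at 400 µM and 15493 to 19492 CPM at 10000 µM in batch 1, and 39366 to 45581, 49039 to 52001 and 12738 to 14782 CPM in batch 2. Of 7 tested markers of Kupffer cells and leukocytes, 6 were lower and 1 higher, with a sum of 86.4 to 116 CPM with vehicle, 120 to 147 CPM at 400 µM and 30.8 to 43.1 CPM at 10000 µM in batch 1. In batch 2 the sums of these markers were 78.3 to 95.5, 96.2 to 116 and 25.3 to 32.5 CPM. Both tested stellate cell markers, Col3a1 and Reln, and the endothelial marker Fcgr2b were lower, and of 4 cholangiocyte markers 1 was higher and 1 lower, near those shares. The stellate sum was 324 to 349 CPM with vehicle, 225 to 242 CPM at 400 µM and 85.6 to 98.8 CPM at 10000 µM in batch 1, and 229 to 292, 109.6 to 136 and 59.8 to 64.1 CPM in batch 2. Fcgr2b was at 1.39 to 4.88 CPM with vehicle, 1.31 to 2.79 CPM at 400 µM and 0 to 0.745 CPM at 10000 µM over both batches. The cholangiocyte sum was 195 to 214, 184 to 216 and 206 to 243 CPM in batch 1 and 192 to 210.0, 177 to 217 and 246 to 268 CPM in batch 2. Fewer cells of a type and less RNA per cell cannot be told apart in bulk lysate, and the part of cell loss or cell composition in the results was not tested. In a matching set of wells, the study's ATP assay gave a viability below vehicle at 10000 µM of valproic acid, the lowest of its treatments, but not at 400 µM.

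The ST assay, run on the same lysates, gave 484 higher (27.2%) and 511 lower (28.7%) of 1781 probes in the direct comparison of batch 1 and 608 (34.1%) and 633 (35.5%) in batch 2. Of 1394 probes tested in both assays under one number and symbol, 685 in batch 1 and 839 in batch 2 were called by both, each with the same sign. Of the 184 probes that rose and then fell in both batches by WT, 59 were on the ST assay. All 59 were lower at 10000 µM by ST in both batches and 41 reversed there too. Of the 54 that did the reverse, 7 were on it, all 7 were higher and 4 reversed. Fabp1 had a direct L2FC of -5.81 and -5.42 by ST in batches 1 and 2, Akr1d1 of -3.98 and -4.25 and Bzw2 of 1.47 and 2.92. The lysates are shared, so the ST assay checks the measurement and not the rats.

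**Figure D5:**
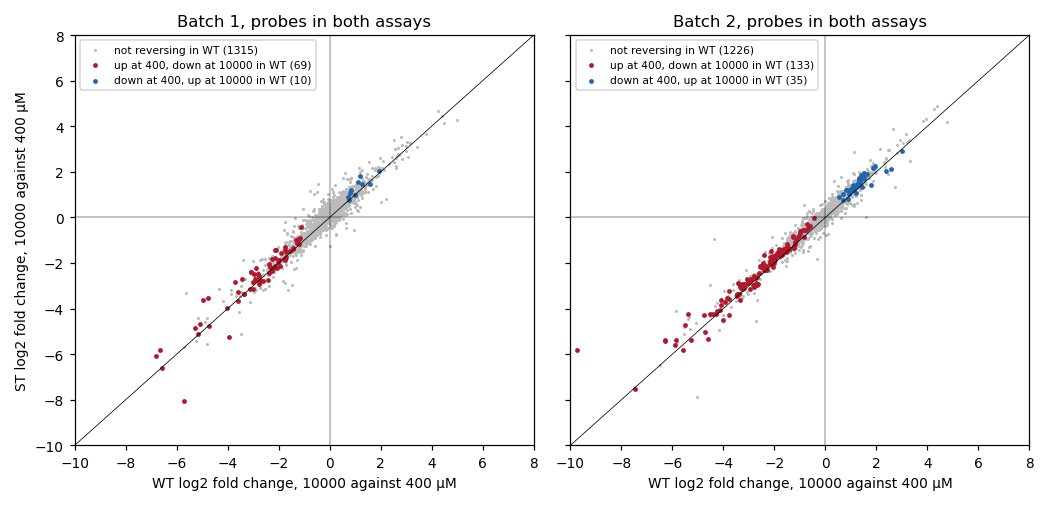
Direct L2FC by ST (vertical) against WT (horizontal) for the 1394 probes tested in both assays, one panel per batch, with the probes reversing in that batch by WT in colour and the line of equal values. The median difference between ST and WT was 0.12 in batch 1 and 0.22 in batch 2, and no probe called by both had opposite signs.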

How the data were processed

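Counts of reads per probe and well were deposited by the authors without normalization, for the ST and the WT assay, after alignment with STAR 2.5.3a to rn6. Every value was checked to be a whole number of at least 0, and no wells were identical. Wells were grouped by their sample labels. The study's summary table lists the smaller and larger responses of valproic acid and chloramphenicol the other way round from these labels, while its text on valproic acid follows them. Wells labelled chloramphenicol were therefore fitted as well, a check added after the data were seen, and no well was reassigned.

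Separate fits for each batch of each assay were made in R 4.3.3 by edgeR 4.0.16 (quasi-likelihood test, TMM, all groups of the batch, probes with a mean of at least 10 counts over all wells of the assay). Contrasts were 10000 µM against 400 µM and each concentration against vehicle, with Benjamini-Hochberg adjustment over all probes tested. Batches were compared by an interaction in one fit. DESeq2 1.42.0 was an alternative, fitted to the valproic acid and vehicle wells only, so it differs from the main fit in wells as well as in tool. The members and gene lists were chosen with earlier results of these data known. Named genes were the 10 of each reversing class with the largest smallest change, the 6 with the largest direct change in each direction and up to 2 per gene list, and list members that reversed were named, except a few genes that are not reported here. The genes used to look at well identity and a few list members that went against their list were chosen after their values were seen. Promoters came from RefSeq (GRCr8), matched by symbol. In counts simulated for WT batch 2, the code was tested on probes with known changes. Reads are not molecules. The wells of a batch share 1 rat, so p-values measure only the spread between wells. The depth of the libraries limits which low probes could be tested. The sequence tables do not hold every gene, and the study's comparison with other platforms was not used here.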

Additional observations from a re-analysis of the deposited data

Results flagged for a closer look

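Of 102 named genes, 19 had a direct L2FC that differed between the batches in edgeR's interaction test (adjusted p under 0.05 over all probes), which 464 of the 10689 probes did (4.34%). Each batch is 1 rat and 1 preparation, so the difference cannot be assigned to either. The difference, batch 2 minus batch 1, was -1.20 for AABR07057436.1, -1.33 for Cyp4a1, -1.04 for Bdh1, -1.46 for Cyp2c22, -2.29 for Cyp1a1, -1.52 for Sult1a1, -0.87 for Gpam, -1.08 for Hp, -0.96 for Rbp4, -2.11 for Hgd, -0.52 for Ndufs8, -1.22 for Cldn1 and -1.39 for Npas2, all of them lower at 10000 µM in both batches and more so in batch 2. It was 1.57 for Cyp2c11 and 1.18 for Serpind1, which were lower at 10000 µM by less in batch 2. It was 1.41 for Bzw2, 1.12 for Ddit3, 0.51 for Bop1 and 5.14 for Nefl, which were higher at 10000 µM and more so in batch 2. The value of Nefl rests on 0 reads at 400 µM in batch 2. None of the 19 changed sign between the batches.

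Among the 6 vehicle wells of batch 2, 1 well stood apart from the other wells by Dixon's criterion for 10 of the 102 genes. The highest well was apart for Sult2a2 (5.89 CPM), Elovl4 (1.39 CPM), Oxct1 (2.48 CPM), Slc10a1 (3.43 CPM), Rps18 (11.1 CPM) and Rrp12 (29.2 CPM), and the lowest for Ddit3 (21.5 CPM), Hspb1 (25.3 CPM), Mdm2 (61.7 CPM) and Bcl2l11 (18.0 CPM). Chance flags about 1 in 20 groups. The direct comparison uses no vehicle well.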

How the results depend on the processing

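Requiring an absolute L2FC of at least 1 left 2292 direct calls in batch 1 and 2934 in batch 2, 453 and 679 at 400 µM, 2250 and 2877 at 10000 µM, 72 and 135 reversing probes, 1895 direct calls in both batches and 54 probes reversing in both. Of the probes reversing in one batch, 72 of batch 1 and 131 of batch 2 then moved the same way in the direct comparison of the other. For ST, where RLE, total counts, DESeq2 and this threshold were chosen after seeing the data, it left 569 and 715 direct calls, 179 and 258 at 400 µM, 522 and 654 at 10000 µM and 28 and 44 reversing. Both batches in 1 fit gave 7117 direct calls, against 4591 called in each batch. The other alternatives stayed within 1.5 times of each count of both classes together. Among them, vehicle wells of the same plate gave 587 reversing probes in batch 2, against 764. With these wells 203 probes reversed in both batches, against 238. By class, the 54 probes that fell and then rose in both batches became 111 with total counts only and 34 without the filter, and the 82 and 282 of the single batches became 150 and 625 with total counts only, with 51 in batch 1 without the filter.

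Leaving out 1 well at a time gave 4823 to 5122 direct calls in batch 1 and 5855 to 6033 in batch 2, 1084 to 1551 and 1952 to 2637 at 400 µM, 4729 to 5320 and 6219 to 6786 at 10000 µM, and 205 to 306 and 587 to 719 reversing probes. For both batches it gave 4230 to 4480 direct calls and 176 to 237 reversing probes, and in the direct comparison of the other batch 203 to 302 and 561 to 723. It was not run for the fits that join the batches. Of 102 named genes, Rps18, Rpl3 and Kat2a were no longer called directly with total counts only, and Rps18 also without the filter and when any 1 of 3 batch 2 wells was left out. No paired analysis was possible by replicate number, because the labels give only well positions. A block of neighbouring well positions in the plate row, chosen after seeing the data, gave 5376 direct calls in batch 1 and 6281 in batch 2.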
